A study of Mus musculus with 6 samples.

Results

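The conjugation enzymes of mouse intestine were taken as all gene symbols of the UDP-glucuronosyltransferase (UGT), glutathione S-transferase (GST, with the membrane-bound microsomal GSTs, MGST) and cytosolic sulfotransferase (SULT) families with at least 10 counts summed over 6 RNA-seq libraries. Of 60 matching symbols among the 23284 genes counted, 38 passed: 8 UGT, 23 GST or MGST and 7 SULT genes. The count threshold took no account of genotype. There were 3 wild-type (WT) libraries and 3 from animals lacking SHP (SHP-KO), the small heterodimer partner, a corepressor of nuclear receptors encoded by Nr0b2. All mice were male and 8 weeks old, had been fasted overnight and were refed for 6 h before collection. RNA came from intestine described as jejunum and ileum, without the share of each. The labels do not say whether each library came from its own animal, so p-values measure the spread between libraries, which may be technical. They also do not say how the SHP-KO allele was made or in which cells it acts.

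Conjugation makes lipophilic molecules water-soluble so that they can be exported. UGTs sit in the endoplasmic reticulum and transfer glucuronic acid from UDP-glucuronate, cytosolic SULTs transfer sulfate from PAPS (3'-phosphoadenosine 5'-phosphosulfate), and GSTs couple the tripeptide glutathione to electrophiles. In the gut these enzymes act on dietary chemicals, drugs, bile acids, steroids and thyroid hormone before or as they cross the enterocyte.

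The libraries held 7956528 to 13511800 counts, with every SHP-KO library below every WT library. Nr0b2 had 31, 14 and 23 counts in the WT libraries and 1, 0 and 0 in the SHP-KO libraries, as the labels state. Levels are in CPM, counts scaled to library size with edgeR's trimmed mean of M values (TMM), and in CPM per kilobase of a gene's own exon bases wherever genes are compared. Marker genes of tissue region and cell type differed between the genotypes. The summed level of 12 proximal small intestine markers was 6349 to 6442 CPM in WT and 30727 to 31212 CPM in SHP-KO, and 11 of them passed as higher. That of 16 ileum markers was 26803 to 27177 CPM in WT and 11520 to 11687 CPM in SHP-KO, with 8 lower and 6 higher. Much of that sum was Fabp6, which went from 10792 to 144 CPM, whereas Slc10a2 rose from 303 to 666 CPM. All 16 tested smooth muscle markers were higher (444 to 451 against 1695 to 1721 CPM) and all 14 B cell markers lower (131 to 139 against 7.51 to 8.94 CPM). Among other cell types, all 11 tested dividing cell markers were lower (221 to 223 against 80.3 to 89.1 CPM), as were 6 of 9 Paneth cell markers (664 to 727 against 274 to 308 CPM). All 6 tested adipocyte markers of 10 listed were higher (118 to 122 against 165 to 174 CPM). Adipoq, Plin1, Lep and Retn were too low to test. The 15 enterocyte markers summed to 85150 to 87687 CPM in WT and 91613 to 93150 CPM in SHP-KO, with 8 higher, 5 lower and 2 not passing. Fabp2, the most abundant of them, went from 33076 to 38735 CPM, whereas Sis fell from 3753 to 1592 CPM. Of 14 hepatocyte markers 11 were too low to test: Fga, Fgb, Fgg and Mup3 had no counts in any library, and Alb had 0 counts over the WT and 15 over the SHP-KO libraries. Serpina1c was higher (28 against 50 counts), Cps1, which enterocytes also express, was lower (55.1 to 16.6 CPM), and Apoh did not pass. The part of tissue region and cell makeup in the results that follow was not tested. In whole tissue, fewer cells of a type and less RNA per cell cannot be told apart.

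Conjugation enzymes moved in both directions in SHP-KO intestine. Ugt2a3 and several cytosolic GSTs were higher, whereas both UGT1A members, the 4 tested UGT2B genes, Sult1d1 and Mgst1 were lower. Of the 38 members 33 had enough counts to test, of which 13 were higher, 12 lower and 8 did not pass (adjusted p under 0.05 over all 12106 tested genes, edgeR quasi-likelihood test). That is 75.8% of tested members called, beside 70.6% of all tested genes called. In the higher direction the shares were 39.4% of members and 35.2% of all genes, and in the lower direction 36.4% and 35.4%. Both shares lie near those of all genes, so the number of calls says nothing particular about these families, and the median log2 fold change was -0.02 over members and -0.01 over all genes. A change of at least 2-fold was seen in 4 members upward (Ugt2a3, Sult4a1, Gstm3 and Gstk1), beside 11.9% of all genes, and in 4 downward (Sult1d1, Ugt2b5, Ugt1a7c and Ugt2b36), beside 8.15% of all genes. In 25 of the 33 tested members the WT and SHP-KO libraries did not overlap in CPM, beside 72.0% of all tested genes.

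**Figure D1:**
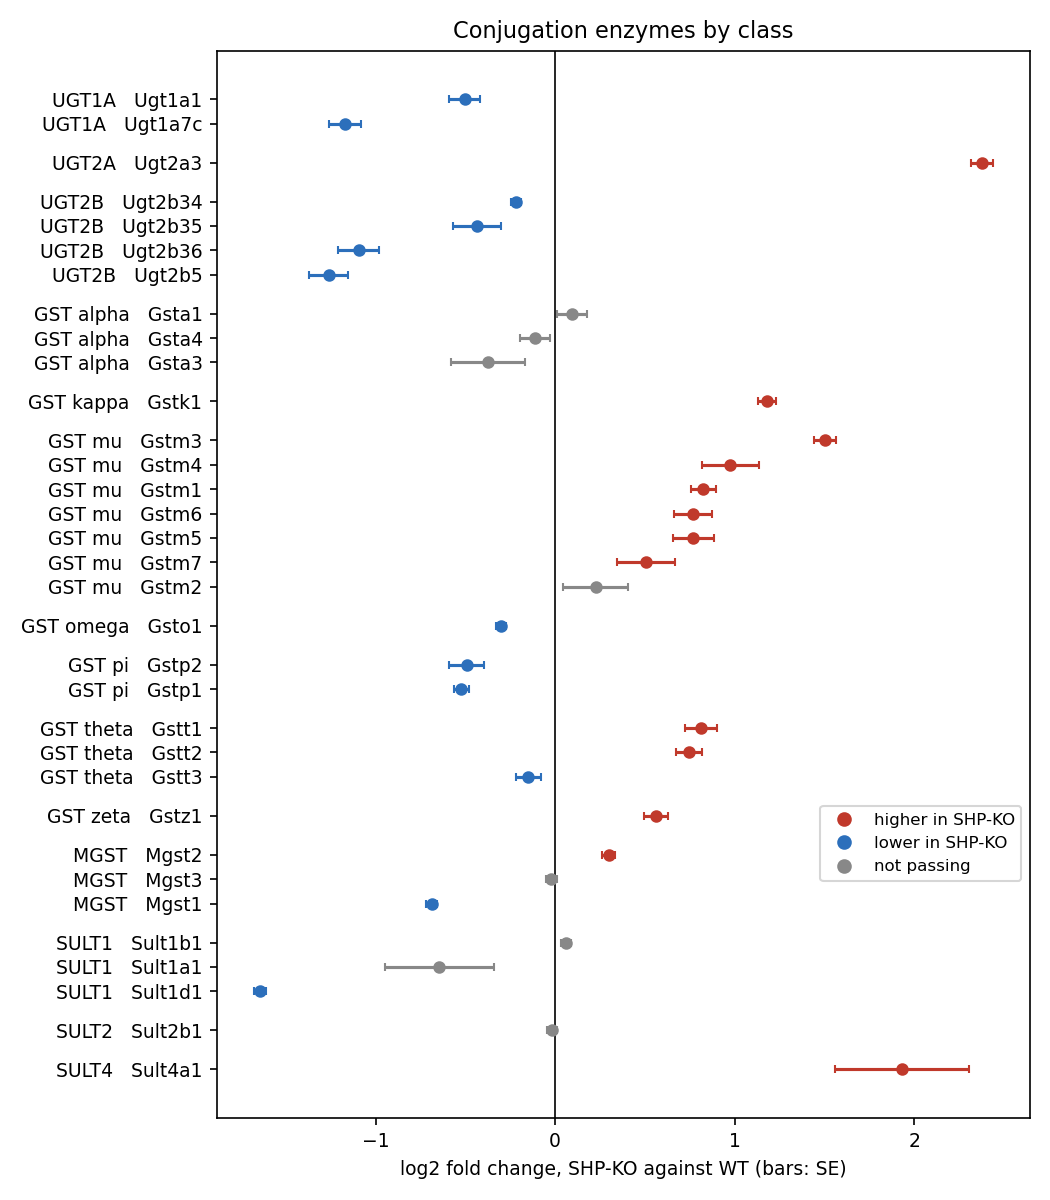
Log2 fold change (SHP-KO against WT, x axis) with its standard error for the 33 tested conjugation enzymes, grouped by class on the y axis; colour gives the direction of the call. Ugt2a3 lies far to the right of the other UGTs, all of which lie left of 0, and 6 of the 7 GST mu genes lie to the right and passed.

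Among the UGTs, which join glucuronic acid to their substrates, 1 of 7 tested genes was higher and 6 were lower. The shares among all tested genes were 35.2% higher and 35.4% lower. Ugt2a3, an enzyme whose human counterpart glucuronidates bile acids, lies on chromosome 5 at 87753997-87766220 on the minus strand (build mm9, as are all gene positions here). It measured 19.9, 21.0 and 20.4 CPM in the WT libraries and 104, 111 and 102 CPM in the SHP-KO libraries. The 2 groups were separated by a wide gap, and each was tight. The means were 20.4 ± 0.508 and 105.9 ± 4.85 CPM (SD, n = 3 each), a log2 fold change of 2.38 (SE 0.062, edgeR adjusted p = 4.8e-53), or 5.19-fold higher.

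The 4 tested UGT2B genes, which glucuronidate steroids, bile acids and many drugs, were all lower. Ugt2b34 (chromosome 5, 87318795-87335962) had the highest level per kilobase of any UGT in either genotype and measured 679, 641 and 694 CPM in WT and 580, 581 and 573 CPM in SHP-KO. The WT libraries were all above the SHP-KO libraries, but the difference was small, from 671 ± 27.2 to 578 ± 4.49 CPM (SD, n = 3), 1.16-fold lower (log2 -0.22, SE 0.028, edgeR adjusted p = 4.7e-11). Ugt2b5 (87553972-87569365) measured 21.7, 21.4 and 19.9 CPM in WT and 8.78, 8.09 and 9.40 CPM in SHP-KO. Every SHP-KO value was below every WT value, and the gene was 2.40-fold lower (log2 -1.26, SE 0.11, edgeR adjusted p = 2.9e-18). Its neighbour Ugt2b36 (87494952-87521580) measured 21.4, 18.9 and 18.4 CPM in WT and 11.5, 8.75 and 7.56 CPM in SHP-KO. The groups were again apart, 2.13-fold lower in SHP-KO (log2 -1.09, SE 0.11, edgeR adjusted p = 2.6e-14). Ugt2b35 measured 10.5, 10.7 and 10.5 CPM in WT and 7.25, 9.63 and 6.42 CPM in SHP-KO. It was lower in each SHP-KO library, by log2 -0.44 (SE 0.14, edgeR adjusted p = 0.003), and lost the call without SHP-KO replicate 3, the lowest (log2 -0.31, edgeR adjusted p = 0.057). Ugt2b1 had 7 counts over the WT libraries and 17 over the SHP-KO libraries and was too low to test.

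These genes share 1 stretch of chromosome 5 with the SULT1 genes. In 701.8 kb, from 87318795 to 88020636, stand 13 matching symbols and no other counted gene, and 8 of the 13 are members. From low to high coordinate the members read Ugt2b34, Ugt2b1, Ugt2b35, Ugt2b36, Ugt2b5, Ugt2a3, Sult1b1 and Sult1d1. The largest rise in the cluster, that of Ugt2a3, lies between the falls of Ugt2b5 and Sult1d1, with Sult1b1 near its WT level in between. Near-identical copies could split reads of some genes: 24.7% of the 100-base windows of the Ugt2b5 transcripts occur in another gene, mostly Ugt2b38, beside 0.595% for Ugt2a3 and none for Ugt2b36 and Sult1d1 (GENCODE transcripts of GRCm38).

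**Figure D2:**
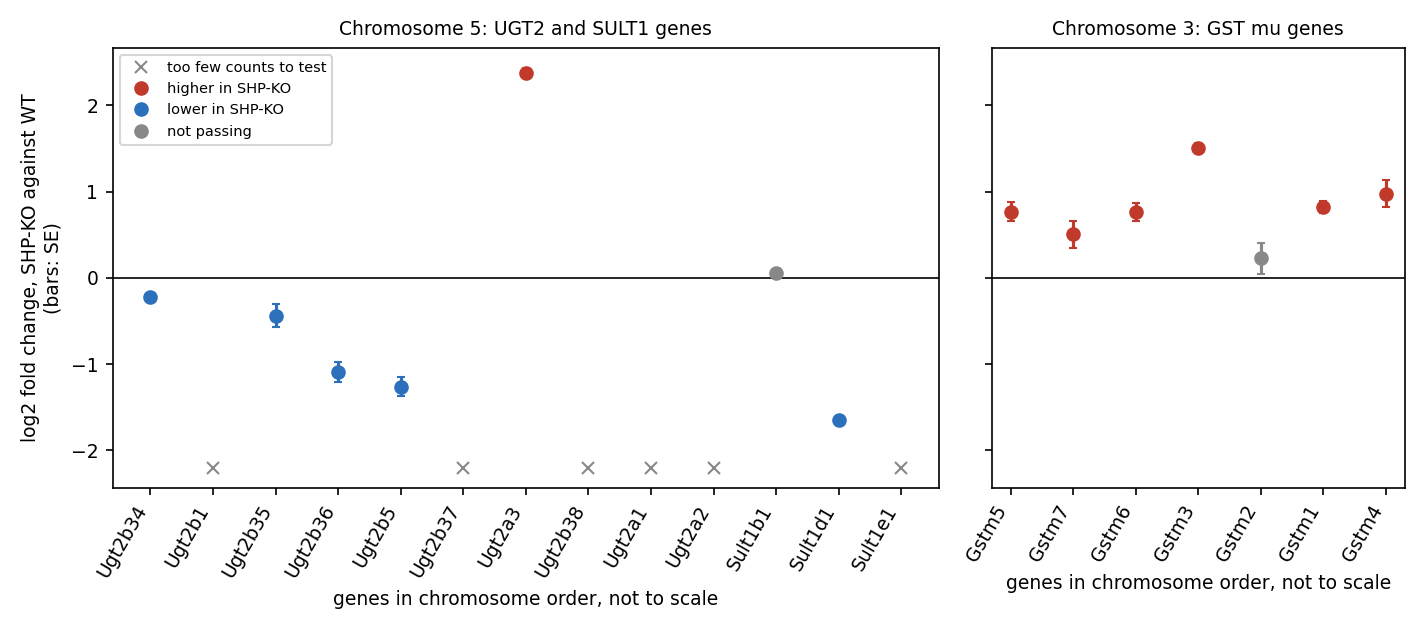
Log2 fold change of each member (SHP-KO against WT, y axis, bars SE) in chromosome order (x axis, not to scale), in the UGT2 and SULT1 cluster on chromosome 5 and the GST mu cluster on chromosome 3; crosses at the bottom mark symbols with too few counts to test. In the first, Ugt2a3 at 2.38 stands between Ugt2b5 at -1.26 and Sult1d1 at -1.64, and in the second every gene lies above 0.

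The promoters of the members that changed at least 2-fold are shown where they hold 1 of 2 searched motifs, so that genes of the cluster that fell can be read beside Gstk1, which rose. The sequences run 5' to 3' on the gene's strand, from 250 bases before to 50 after the annotated start, and are credited to RefSeq on GRCm38.p6, not the mm9 build of the counts. Of the 38 members 35 had a promoter in that table, with 46 promoters among them. Capitals mark AAGGTCA (an extended half-site of nuclear receptors that bind as monomers) or its reverse complement TGACCTT. The other motif, TGACNNNGC, is the core of the antioxidant response element and is in none of those printed. Both strands were searched.
Ugt2b5: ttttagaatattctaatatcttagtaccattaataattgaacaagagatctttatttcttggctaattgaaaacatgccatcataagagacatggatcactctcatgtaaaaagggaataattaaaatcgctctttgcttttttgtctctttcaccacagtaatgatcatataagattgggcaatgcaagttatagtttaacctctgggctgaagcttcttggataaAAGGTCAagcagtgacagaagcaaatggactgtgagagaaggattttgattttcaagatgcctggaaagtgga
Ugt2b36: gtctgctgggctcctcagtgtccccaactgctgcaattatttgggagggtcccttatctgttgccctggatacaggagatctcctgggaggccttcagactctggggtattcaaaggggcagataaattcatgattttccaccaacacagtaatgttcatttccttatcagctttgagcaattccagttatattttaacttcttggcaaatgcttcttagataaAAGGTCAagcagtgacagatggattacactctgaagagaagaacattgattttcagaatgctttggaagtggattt
Gstk1: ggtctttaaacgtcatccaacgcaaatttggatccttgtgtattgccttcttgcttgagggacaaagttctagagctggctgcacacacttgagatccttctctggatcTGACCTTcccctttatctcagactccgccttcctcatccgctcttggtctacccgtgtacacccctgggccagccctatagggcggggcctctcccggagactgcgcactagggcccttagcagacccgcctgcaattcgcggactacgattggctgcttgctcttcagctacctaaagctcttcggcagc
These windows are at chr5:87140291-87140590 for Ugt2b5 and chr5:87092506-87092805 for Ugt2b36, both on the minus strand, and at chr6:42245685-42245984 on the plus strand for Gstk1. AAGGTCA was in 3 of the 46 member promoters and in 4.72% of all 32851 promoters. Ugt2b5 and Ugt2b36, both lower, hold it at -23 and -26 relative to the start, whereas in Gstk1, which was higher, it lies on the opposite strand at -141. The promoters of Ugt2b5 and Ugt2b36 share the same base in 61.4% of the columns of a global alignment, gap columns included. By the same measure Ugt2b5 shares 49.5% with Ugt2a3 and 47.6% with Sult1d1. Sult1d1 and Ugt2a3 share 44.5%, and Gstp1 and Gstp2 share 76.6%. TGACNNNGC was in 4 member promoters (Gsta3, Gstm5, Gstm7 and Mgst1) and in 12.4% of all promoters. The promoters of Ugt2a3, Sult1d1, Gstm3 and Ugt1a7c hold neither, and Sult4a1 had none in the table. A match describes the letters only.

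The UGT1A enzymes come from 1 locus, in which alternative first exons are spliced to a shared set of exons. The 2 members there were both lower. Ugt1a7c, a broad-substrate enzyme of the gut, spans chromosome 1 from 89991576 to 90116577 on the plus strand. It measured 29.4, 30.9 and 28.7 CPM in WT and 12.7, 14.7 and 12.0 CPM in SHP-KO. The highest SHP-KO library was well below the lowest WT library, and the gene was 2.25-fold lower (log2 -1.17, SE 0.091, edgeR adjusted p = 9.8e-21). Ugt1a1, which glucuronidates bilirubin, measured 28.8, 26.6 and 27.1 CPM in WT and 16.5, 22.1 and 19.3 CPM in SHP-KO. Its groups were apart as well, with more spread in SHP-KO, and it fell by 0.50 on the log2 scale (SE 0.086, edgeR adjusted p = 2.4e-07). The deposited counting command does not assign reads that overlap several genes. In each of the 2 members, 2316 exon bases are shared with other UGT1A genes. The values therefore rest on 978 bases of Ugt1a7c and 913 of Ugt1a1 that no other gene covers. The remaining symbols of the locus had 0 to 4 counts in all.

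Of the sulfotransferases, which add sulfate to hydroxyl and amine groups, 1 of 5 tested genes was higher, 1 lower and 3 did not pass. Among all tested genes 35.2% were higher and 35.4% lower. Sult1d1, which sulfates dopamine and other catecholamines, lies on chromosome 5 at 87983675-87998031. It measured 675, 610.1 and 682 CPM in WT and 214, 207 and 209.6 CPM in SHP-KO. All 3 SHP-KO libraries sat close together, far below the WT libraries. The fall from 656 ± 39.6 to 210.0 ± 3.73 CPM (SD, n = 3) was 3.13-fold (log2 -1.64, SE 0.033, edgeR adjusted p = 3.0e-55), the largest among the 33 tested members. Its neighbour Sult1b1, which sulfates thyroid hormone and small phenols, measured 442, 460.0 and 456 CPM in WT and 475, 486 and 454 CPM in SHP-KO. Those groups overlapped and the difference did not pass (log2 0.06, SE 0.029, edgeR adjusted p = 0.063), though it did without SHP-KO replicate 3, the lowest of that genotype (log2 0.09, edgeR adjusted p = 0.019). Sult2b1, which sulfates cholesterol and pregnenolone, measured 468, 463 and 462 CPM in WT and 463, 466 and 449.8 CPM in SHP-KO, again with overlap (log2 -0.02, SE 0.028, edgeR adjusted p = 0.63).

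Low-count sulfotransferases are less certain. Sult4a1, a brain-enriched member of the family, had 6, 6 and 8 counts in WT and 21, 20 and 11 in SHP-KO. Every SHP-KO library was above every WT library although it was sequenced less deeply, and the level rose from 0.523 ± 0.0833 to 2.04 ± 0.717 CPM (SD, n = 3), 3.81-fold (log2 1.93, SE 0.38, edgeR adjusted p = 4.2e-06). Sult1a1, a phenol sulfotransferase, missed the threshold at 2.22 (WT) and 1.42 CPM (SHP-KO; log2 -0.64, SE 0.30, edgeR adjusted p = 0.050). It passed without WT replicate 1 (log2 -0.85, edgeR adjusted p = 0.016) or SHP-KO replicate 1 (log2 -0.83, edgeR adjusted p = 0.033). Sult1c2 had 34 counts over the WT and 7 over the SHP-KO libraries, and Sult6b1 had 12 in each. Both were too low to test. Sult1e1, the oestrogen sulfotransferase, and all 7 Sult2a symbols, which sulfate bile acids and hydroxysteroids, had no counts in any library. Such a zero allows a level of up to 0.0468 CPM over the 6 libraries (3 counts, counting error only).

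**Figure D3:**
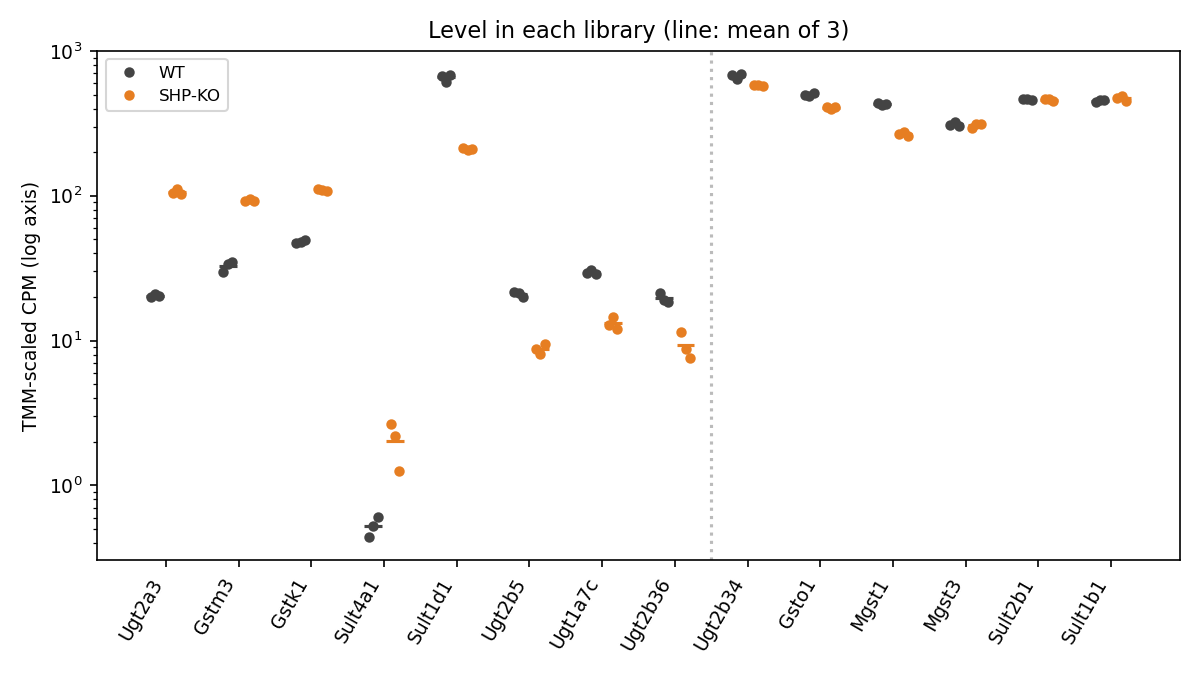
Level in each library (CPM, log axis) of some of the members given with values per library, with WT and SHP-KO as separate colours. The 3 points of a genotype lie close together for most genes, the genotypes are apart for Ugt2a3, Sult1d1, Gstm3 and Gstk1, and they overlap for Sult1b1, Sult2b1 and Mgst3.

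The cytosolic GSTs, which detoxify electrophiles and peroxidation products, made up 18 of the 33 tested members and 10 of the 13 that were higher. Of the other tested cytosolic GSTs 4 fell and 4 did not pass. Among all tested genes 35.2% were higher and 35.4% lower, and differences between classes were not tested. In the mu class 6 of 7 genes were higher and none lower, with a median log2 fold change of 0.77. Gstm3 (chromosome 3, 107766614-107772092) measured 29.7, 33.6 and 35.1 CPM in WT and 91.9, 95.2 and 91.6 CPM in SHP-KO. The groups were far apart, and the rise from 32.8 ± 2.79 to 92.9 ± 1.99 CPM (SD, n = 3) was 2.83-fold (log2 1.503, SE 0.059, edgeR adjusted p = 1.4e-39). Gstm1, a mu enzyme abundant in mouse liver, measured 25.6, 29.6 and 25.6 CPM in WT and 46.6, 49.9 and 46.3 CPM in SHP-KO. It too was separated by genotype, 1.77-fold higher (log2 0.83, SE 0.071, edgeR adjusted p = 1.9e-18).

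Other mu genes were expressed at a lower level. Gstm4 measured 4.53, 4.30 and 4.08 CPM in WT and 8.40, 7.98 and 9.05 CPM in SHP-KO. It was higher in every SHP-KO library, log2 0.98 (SE 0.16, edgeR adjusted p = 6.7e-08). Gstm5 and Gstm6 each rose by 0.77 on the log2 scale (SE 0.11 for each), to 15.2 to 17.2 CPM and 18.3 to 20.2 CPM in the SHP-KO libraries. Of the Gstm5 exon bases, 145 lie opposite 4933431E20Rik. Counting took no account of strand and did not assign reads that overlap several genes, so reads on those bases were left out. Gstm7 rose by 0.50 (SE 0.16, edgeR adjusted p = 0.0041) and did not pass in DESeq2 (adjusted p = 0.071). Gstm2 measured 4.02, 4.47 and 4.69 CPM in WT and 4.07, 4.92 and 6.30 CPM in SHP-KO, with overlapping groups (log2 0.23, edgeR adjusted p = 0.27). All 7 genes stand in 149.0 kb of chromosome 3, from 107698772 to 107847777, with no other counted gene between them. Of the 100-base transcript windows, 13.8% of Gstm3 and 7.73% of Gstm1 occur in another gene.

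Gstk1, the kappa enzyme of mitochondria and peroxisomes, lies on chromosome 6 at 42195934-42200440. It measured 47.4, 48.3 and 49.6 CPM in WT and 111, 110.4 and 108 CPM in SHP-KO. Neither group spread by more than a few CPM, and the means of 48.4 ± 1.09 and 109.7 ± 1.85 CPM (SD, n = 3) differed 2.26-fold (log2 1.18, SE 0.050, edgeR adjusted p = 3.0e-37). In the theta class, which acts on small halogenated compounds and peroxides, Gstt1 rose by 0.81 on the log2 scale (SE 0.088, edgeR adjusted p = 1.2e-13) and Gstt2 by 0.75 (SE 0.073, edgeR adjusted p = 1.2e-15). Gstt3, in the same 60.8 kb of chromosome 10, went the other way, with 45.7, 49.2 and 46.7 CPM in WT and 48.9, 40.7 and 38.4 CPM in SHP-KO. SHP-KO replicate 1 lay among the WT libraries. Its call (log2 -0.15, SE 0.068, edgeR adjusted p = 0.044) was lost in DESeq2 (adjusted p = 0.107) and without WT replicate 2 (0.109), WT replicate 3 (0.052), SHP-KO replicate 2 (0.153) or SHP-KO replicate 3 (0.341). Gstz1, which isomerises maleylacetoacetate in tyrosine breakdown, rose by 0.56 (SE 0.069, edgeR adjusted p = 1.4e-11). Of its exon bases 476 overlap Pomt2, and reads on them were likewise left out.

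Of the omega and pi enzymes, Gsto1, Gstp1 and Gstp2 were lower, and Gsto2 was too low to test, with 5 counts over the WT and 15 over the SHP-KO libraries. Gsto1, a thioltransferase and dehydroascorbate reductase, had the highest level per kilobase of the cytosolic GSTs and measured 500.1, 489 and 509 CPM in WT and 410.0, 395 and 411 CPM in SHP-KO. The groups were apart by a small step, log2 -0.30 (SE 0.029, edgeR adjusted p = 4.1e-16). Gstp1 (chromosome 19, 4035411-4037912), which conjugates a wide range of electrophiles, measured 121, 124 and 124 CPM in WT and 84.9, 85.3 and 86.5 CPM in SHP-KO. Its SHP-KO libraries were nearly equal and all below WT (log2 -0.52, SE 0.044, edgeR adjusted p = 5.0e-19). The adjacent Gstp2 measured 19.9, 21.6 and 19.1 CPM in WT and 15.3, 13.8 and 14.0 CPM in SHP-KO, again apart (log2 -0.49, SE 0.097, edgeR adjusted p = 5.6e-06). Reads of the pair could be split, since 52.8% of Gstp1 and 63.5% of Gstp2 windows occur in some other gene, most often the partner. None of the 3 tested alpha genes passed: Gsta4, which acts on 4-hydroxynonenal, stood at 23.4 (WT) and 21.6 CPM (SHP-KO; edgeR adjusted p = 0.23), Gsta1 20.8 and 22.2 CPM (0.33) and Gsta3 4.40 and 3.37 CPM (0.097). Gsta3 passed as lower without WT replicate 1 (log2 -0.55, edgeR adjusted p = 0.020). Gsta1 is uncertain, since 81.8% of its windows occur in another gene. Gsta2 with 11 counts and Gsto2 with 20 were too low to test and are among the members nearest the threshold, while Ugt1a9, Ugt1a6a, Ugt1a2 and Ugt2a1 with 4 counts each lay just outside it.

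The 3 MGST genes encode trimeric membrane enzymes and had 3 different outcomes. Mgst1 (chromosome 6, 138089058-138105273), which protects endoplasmic reticulum and mitochondrial membranes from lipid peroxides, measured 437, 424 and 432 CPM in WT and 266, 277 and 259.5 CPM in SHP-KO. Every SHP-KO library was far below WT, and the fall from 431 ± 6.66 to 268 ± 8.87 CPM (SD, n = 3) was 1.61-fold (log2 -0.69, SE 0.031, edgeR adjusted p = 1.3e-35). Mgst2, which can make leukotriene C4, measured 161, 157 and 161 CPM in WT and 197, 197 and 195 CPM in SHP-KO. It was higher in all SHP-KO libraries, by 0.30 on the log2 scale (SE 0.036, edgeR adjusted p = 5.4e-12). Mgst3, a glutathione-dependent peroxidase, measured 309, 322 and 303 CPM in WT and 292, 313 and 314 CPM in SHP-KO, with overlapping groups (log2 -0.02, SE 0.032, edgeR adjusted p = 0.56).

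Summed per kilobase, the UGT family went from 315 ± 8.22 to 286 ± 7.45 CPM per kilobase (SD, n = 3), without overlap (exact permutation test, two-sided, p = 0.1, the smallest possible). Its UGT2 genes alone summed to 255 ± 8.54 in WT and 252 ± 4.15 in SHP-KO (SD, n = 3), with overlapping libraries (exact permutation test, two-sided, p = 0.6, smallest possible 0.1). Within the UGT family the share of Ugt2a3 went from 3.07% ± 0.15 to 17.5% ± 0.34 and that of Ugt2b34 from 69.9% to 66.2%. The UGT1A sum went from 60.5 to 34.6 CPM per kilobase and the GST mu sum from 80.9 ± 4.93 to 167.1 ± 4.46. The SULT sum went from 859 ± 14.6 to 676 ± 13.9 CPM per kilobase, and within it Sult1d1 went from 31.9% ± 1.40 to 13.0% ± 0.36 while Sult2b1 went from 47.6% to 59.9%. Those last 3 sums did not overlap between genotypes, and each had the smallest p that 3 against 3 libraries allow (exact permutation, two-sided, p = 0.1). All GST and MGST genes together summed to 2103 and 2027 CPM per kilobase. In order of level per kilobase, Mgst3 was the first of all members in both genotypes (491 and 483), while Mgst1 went from the second place (457) to the fifth (284) and Sult1d1 from the fifth (274) to the tenth (87.7). Mgst2 moved from the sixth place (271) to the fourth (334).

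**Figure D4:**
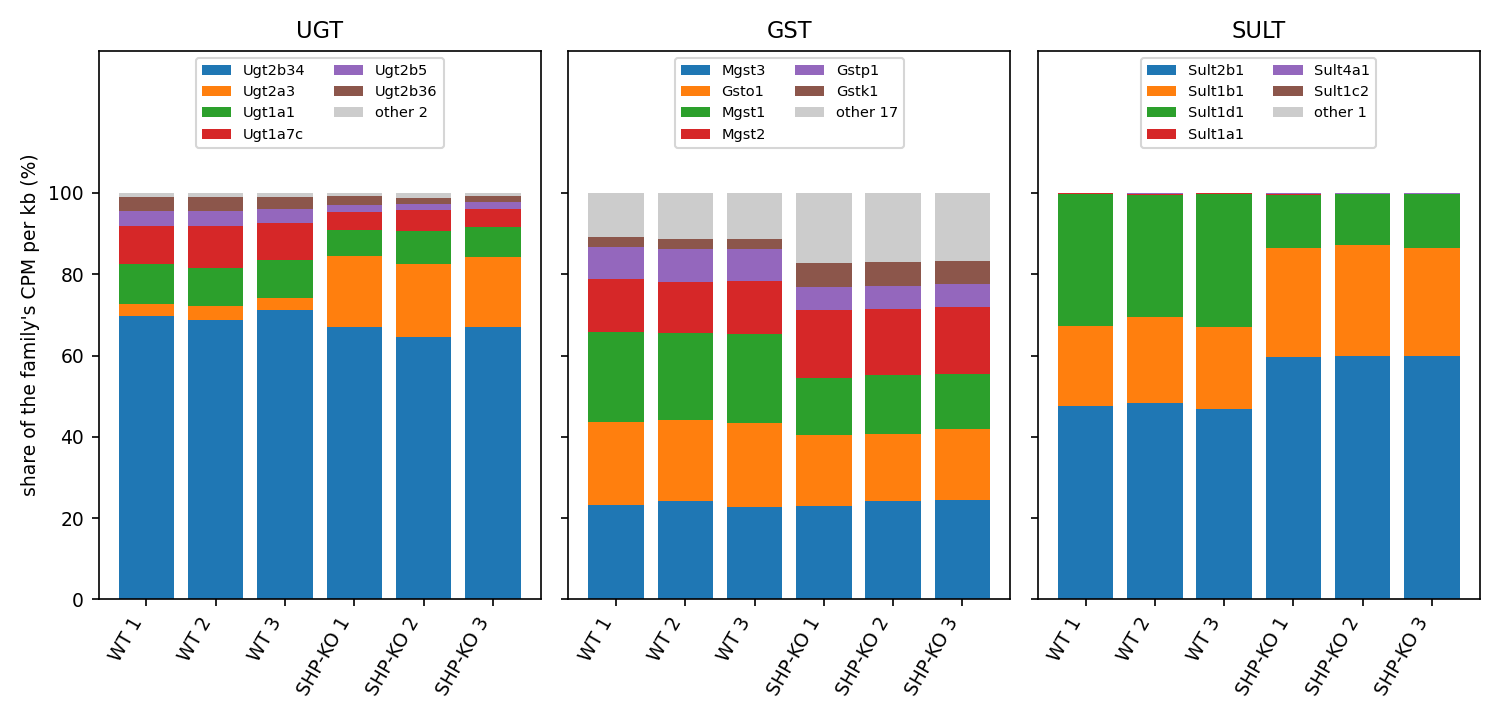
Share of each family's summed CPM per kilobase (y axis, percent) held by its members, with 1 stacked bar per library in WT and SHP-KO for the UGT, GST with MGST, and SULT families. In every SHP-KO library Ugt2a3 takes a larger and Sult1d1 a smaller share than in any WT library, with means of 17.5% against 3.07% and 13.0% against 31.9%.

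Among the genes that feed these enzymes, 7 of 10 tested genes of PAPS supply were lower and 1 higher, with a median log2 fold change of -0.34. Differences between these lists were not tested, and 35.4% of all tested genes were lower. Slc13a1, a sodium-sulfate cotransporter, fell from 551 ± 23.9 to 27.2 ± 0.865 CPM (SD, n = 3; log2 -4.34, edgeR adjusted p = 7.1e-85). The sulfate transporter Slc26a2 fell by 1.35 on the log2 scale, from 137 to 53.6 CPM, and Papss1, which makes PAPS, by 1.01, from 354 to 176 CPM. The 1 rise was a small one, that of Bpnt1, which degrades the by-product of sulfation (log2 0.11), and it did not pass in DESeq2 (adjusted p = 0.13). Of 7 genes of UDP-glucuronate supply, 3 were lower and none higher: Slc35d1, a carrier of UDP-glucuronate into the endoplasmic reticulum (log2 -0.47), Ugp2, which makes UDP-glucose (-0.41), and Pgm2 (-0.24). Ugdh, which makes UDP-glucuronate, stood at 278 (WT) and 274 CPM (SHP-KO), without a call (edgeR adjusted p = 0.58).

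Glutathione supply and turnover moved both ways, with 6 of 18 tested genes higher, 8 lower and a median log2 fold change of 0.01. Among all tested genes 35.2% were higher and 35.4% lower. Gss, which completes glutathione synthesis, rose from 145 ± 1.65 to 332 ± 29.3 CPM (SD, n = 3; log2 1.20), and Ggt1, which cleaves extracellular glutathione, rose by 0.43. Gclm, the modifier subunit of the first synthetic step, fell by 1.16, while its catalytic partner Gclc was at log2 0.02 (edgeR adjusted p = 0.69). Slc1a1, a carrier of glutamate and cysteine, fell by 2.61, from 162 to 26.6 CPM. All 9 deconjugation genes in the files passed, 4 higher and 5 lower, beside 70.6% of all tested genes that passed. Among the 9 were the mercapturate deacylase Acy3 (log2 0.88) and beta-glucuronidase Gusb (-0.58).

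Of 11 transporters that export conjugates, 2 were higher, 4 lower and 5 did not pass. The shares among all tested genes were 35.2% higher and 35.4% lower. The largest falls were those of Osta (2287 to 805 CPM, log2 -1.51) and Ostb (579 to 189.8 CPM, log2 -1.61), which form the basolateral bile acid and steroid sulfate exporter and are also on the ileum marker list. Abcg2, an apical exporter of sulfates and glucuronides singled out after its values were seen, measured 321, 565 and 317 CPM in WT and 163, 167 and 161 CPM in SHP-KO. WT replicate 2 stood well above the other WT libraries, and without it the log2 fold change went from -1.28 (edgeR adjusted p = 0.020) to -0.97 (5.3e-72), whereas leaving out any 1 SHP-KO library lost the call (adjusted p 0.068 to 0.072). Abcc3, a basolateral exporter of glucuronides, had the same high library, at 18.3, 56.5 and 22.5 CPM in WT and 27.5, 25.9 and 27.7 CPM in SHP-KO. Its log2 fold change turned from -0.23 (edgeR adjusted p = 0.74) to 0.40 (4.0e-05) without WT replicate 2.

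Of 24 tested regulators of conjugating enzymes, 7 were higher and 13 lower (median log2 -0.31). Over all tested genes, 35.2% were higher and 35.4% lower. Nr1i3, the constitutive androstane receptor and an activator of UGT, GST and SULT genes, measured 13.3, 12.3 and 10.9 CPM in WT and 69.0, 72.5 and 72.6 CPM in SHP-KO. No library came near the other group, and the rise was 5.87-fold (log2 2.55, SE 0.075, edgeR adjusted p = 6.0e-49). The pregnane X receptor Nr1i2 fell by 0.50, and the bile acid receptor Nr1h4 fell by 1.90, from 106 to 28.5 CPM. Nfe2l2, which acts through the antioxidant response element, rose by 0.44, and its partners Mafg and Mafk by 1.19 and 0.70, as did its inhibitor Keap1 by 0.19. Hnf4a and Cdx2, which sustain enterocyte genes, fell by 0.71 and 0.92. Nr0b2 is itself in this list.

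**Figure D5:**
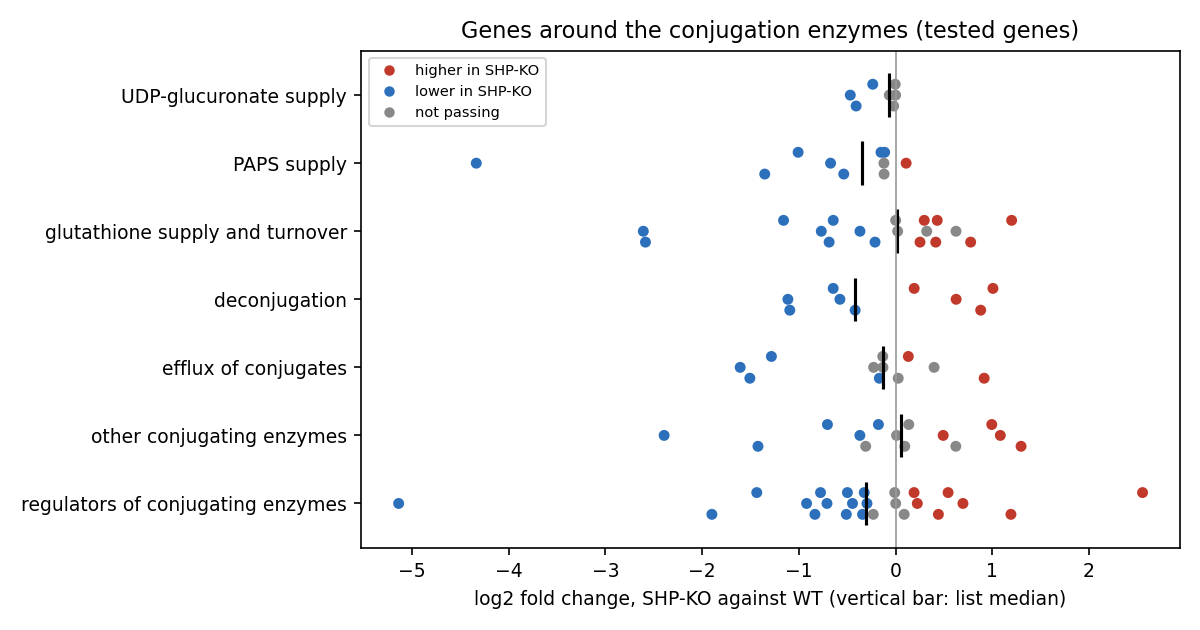
Log2 fold change (SHP-KO against WT, x axis) of each tested gene of 7 lists of genes around the conjugation enzymes (y axis), with colour for the call and a vertical bar at the list's median. The PAPS supply list, with a median of -0.34, extends to Slc13a1 at -4.34, and the regulators extend from Nr0b2 to Nr1i3 at 2.55.

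The fold changes and p-values of the authors' deposited table were returned for all 12939 genes, to within 1e-06, by edgeR's exact test with an assumed coefficient of variation of 0.2. Of the members, 17 passed in the authors' deposited table (adjusted p under 0.05), 11 higher and 6 lower, beside 19.0% of genes higher and 15.6% lower. The members that lost the call were those with small changes: Ugt2b34, Ugt2b35, Ugt1a1, Gsto1, Gstp1, Gstp2, Gstm7, Gstt3, Gstz1 and Mgst2. Ugt2b1 (higher) and Sult1c2 (lower), too low to test in the quasi-likelihood comparison, passed in the authors' deposited table. All 8 members with a change of at least 2-fold kept their call.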

How the data were processed

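RNA-seq of WT and SHP-KO mouse intestine was compared over 3 libraries per genotype. Per the file headers, the authors made the deposited counts with featureCounts 1.5.2 on mm9 gene models, without strand or multiply overlapping assignment; the submitters' processing notes also name STAR 2.6.0c and Trimmomatic 0.38. The authors' deposited comparison table gives log2 fold changes and p-values with adjusted values, and how it was made is not given in the sources used here. From the counts, edgeR 4.0.16 (TMM scaling, filterByExpr with a minimum count of 10, robust quasi-likelihood test) was fitted over 12106 genes with Benjamini-Hochberg adjustment. DESeq2 1.42.0 and other settings were alternatives. The fit was tested on simulated data. Depth of 7956528 to 13511800 counts limits genes of few counts, and no pair of libraries was identical. Members and lists were chosen with earlier results of these data known. Values per library are given for the 3 highest members of a family, and for the 4 largest rises and 4 largest falls that passed without overlap of the genotypes, and for a few others such as Gstt3 and Gstm2, chosen after their values were seen; in other lists, the largest changes and those against the list's median direction are named. Some genes of the lists are counted but not reported here by name.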

Additional observations from a re-analysis of the deposited data

How the results depend on the processing

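The counts of members higher (13) and lower (12) were recomputed with other scaling, without the filter, in DESeq2, with edgeR's exact test at a coefficient of variation of 0.2, and leaving out each library. The exact test called 6 members lower, and by family 2 UGT genes higher (against 1), 3 lower (against 6), 1 GST or MGST gene lower (against 5) and 2 SULT genes lower (against 1). Without the filter 2 UGT genes were higher and 4 SULT genes lower, and without scaling factors 2 SULT genes were lower. Leaving out 1 library gave 13 to 14 members higher and 10 to 14 lower, with 1 UGT gene higher, 5 to 6 lower, 11 GST or MGST genes higher, 4 to 6 lower, and 1 to 2 SULT genes in each direction. Of single members, Mgst3 ranged, with 1 library left out, from -0.048 (without WT replicate 3) to 0.0086 (without SHP-KO replicate 1) on the log2 scale and passed in none of these fits, but it passed as lower without the filter (log2 -0.08, edgeR adjusted p = 0.020). Sult1b1 turned to -0.0016 without the filter and did not pass there. Abcc3 ranged from -0.53 without WT replicate 1 to 0.40 without WT replicate 2. The labels state no pairing of libraries by replicate number. Deviations of same-numbered libraries correlated at -0.0064 to 0.021, beside -0.027 to 0.0096 for the other pairs. With 3 libraries per genotype these correlations cannot show whether a pairing existed. With a replicate block Sult1b1 passed as higher, giving 2 SULT genes, and no other call of a member changed. The median over all genes was -0.01, and -0.05 without scaling. Low counts limit Sult4a1, Sult1a1 and the untested members.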

Other observations

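Enzymes that conjugate by other routes were described from a separate list, of which 14 of 27 had enough counts to test. In this list 4 were higher, 5 lower and 5 missed the threshold (median log2 0.05). The shares among all tested genes were 35.2% higher and 35.4% lower. Baat, which joins bile acids to taurine or glycine, fell from 15.8 ± 1.42 to 5.89 ± 1.15 CPM (SD, n = 3; log2 -1.42, SE 0.13, edgeR adjusted p = 1.3e-16). Acsm3 and Acsm5, medium-chain acyl-CoA synthetases, went in opposite directions, with log2 fold changes of -2.39 and 1.30. Ltc4s, which makes leukotriene C4, rose by 0.99, and Tpst1, which sulfates protein tyrosines in the Golgi, rose by 1.08 at a level of 0.979 (WT) and 2.06 CPM (SHP-KO). The arylamine acetyltransferase Nat2 fell by 0.18.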
